A study of Mus musculus with 12 samples.

Results

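The cold response of inguinal white adipose tissue (iWAT, the subcutaneous fat pad of the groin) was followed in mice whose adipocytes lack the transcription factor ATF4. It was measured in 6 of the 12 libraries of the series, namely 3 of Atf4AKO iWAT at room temperature (RT) and 3 of Atf4AKO iWAT after 24 h of cold. The genes examined were all 13404 of the 14159 listed genes whose normalized count averaged at least 10 over the 12 libraries. Atf4AKO mice carry floxed Atf4 alleles and Cre driven by Adipoq, a promoter that is active in adipocytes and not in the other cells of the fat pad. Both Atf4AKO groups carry this deletion, and the labels give temperature as the difference between them. The other 6 libraries came from Atf4WT mice, floxed littermates without Cre, which were kept at RT or in the cold in the same way and are used below only where the responses are compared. All mice were on a C57BL/6 background. The age and sex of the mice used for sequencing are not given in the sources used here.

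In rodents, cold is sensed by the nervous system, and noradrenaline from sympathetic nerves acts on beta-adrenergic receptors of adipocytes, raises cAMP and starts lipolysis. White fat under this drive gains beige adipocytes, which hold many mitochondria and burn fatty acids through the uncoupling protein UCP1. ATF4 is the effector of the integrated stress response, a pathway that slows general translation and turns on genes of amino acid supply, tRNA charging and protein folding when amino acids run short or when mitochondria or the endoplasmic reticulum (ER) are under stress.

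The libraries were made from polyadenylated RNA with a strand-specific kit, and between 25784417 and 29105147 reads of each Atf4AKO library fell on the listed genes. The values below are normalized counts, which are reads divided by the size factor of the library, and 3 values in a row are always replicates 0, 1 and 2. No library was a repeat of another, since within the Atf4AKO groups the chi-square of any pair of replicates was 40.3 to 59.9 times its degrees of freedom. Along the first principal component, which held 55.9% of the variance among the 6 libraries, the cold and RT libraries lay on opposite sides of 0, and cold replicate 1 was the farthest out at 63.2, against 13.9 and 22.9 for the other two cold libraries. This library was the highest of the 3 cold ones for 59.2% of the genes that rose with cold and the lowest for 45.2% of those that fell.

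Atf4 itself, on chromosome 15 from 80255184 to 80257541, had normalized counts of 1594, 1469.7 and 1639 at RT and 1578, 788 and 1179.8 after cold exposure. Atf4WT iWAT averaged 4815 ± 791 (SD, n = 3) without and 6970 ± 1054 (SD, n = 3) with cold exposure, so all 6 Atf4AKO libraries lay below these means. The RT and cold Atf4AKO libraries overlapped, and the change did not pass the test (log2 fold change −0.46, standard error 0.22, limma adjusted p = 0.137). The fat pad also holds cells in which Adipoq-Cre is not active.

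Markers of the cells that a fat pad can hold were summed in each library. The 8 white adipocyte markers, which include Adipoq, Plin1 and Pparg, added up to 429493 to 523175 at RT and 446439 to 506585 after cold, and none of the 8 was called. The 11 B cell markers summed to 406 to 1151 at RT and 185 to 830.2 after cold, and the 14 T cell markers to 405 to 1074 at RT and 226 to 587 after cold. None of these 25 markers was called by limma in either direction. In cold-exposed Atf4WT iWAT the same sums were 4887 to 15869 for B cells and 1296 to 10258 for T cells. In Atf4WT iWAT at RT they were 548, 472 and 4853 for B cells and 368, 278 and 981 for T cells, so they varied between libraries of a group. The 10 macrophage markers tested summed to 22342 to 43262 at RT and to 24664, 4652 and 23995 in the cold libraries. Those of progenitors and fibroblasts (10 tested) reached 42793 to 61949.9 at RT and 32288, 14393 and 43136 after cold. In cold-exposed Atf4WT iWAT replicate 1 was the lowest for both lists as well. There the macrophage sums were 27731, 12268 and 30857.5, and those of progenitors and fibroblasts 41575, 18319 and 36072. Atf4AKO cold replicate 1 thus had the least macrophage and progenitor signal of its group. It also had the most muscle signal, with 8 skeletal muscle markers at 6666 against 1915 and 1452 in the other two cold libraries. No marker could be seen at 0, because a gene is listed only if every library had a read of it. In RNA from whole tissue, fewer cells of a type and less RNA per cell cannot be told apart.

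**Figure D1:**
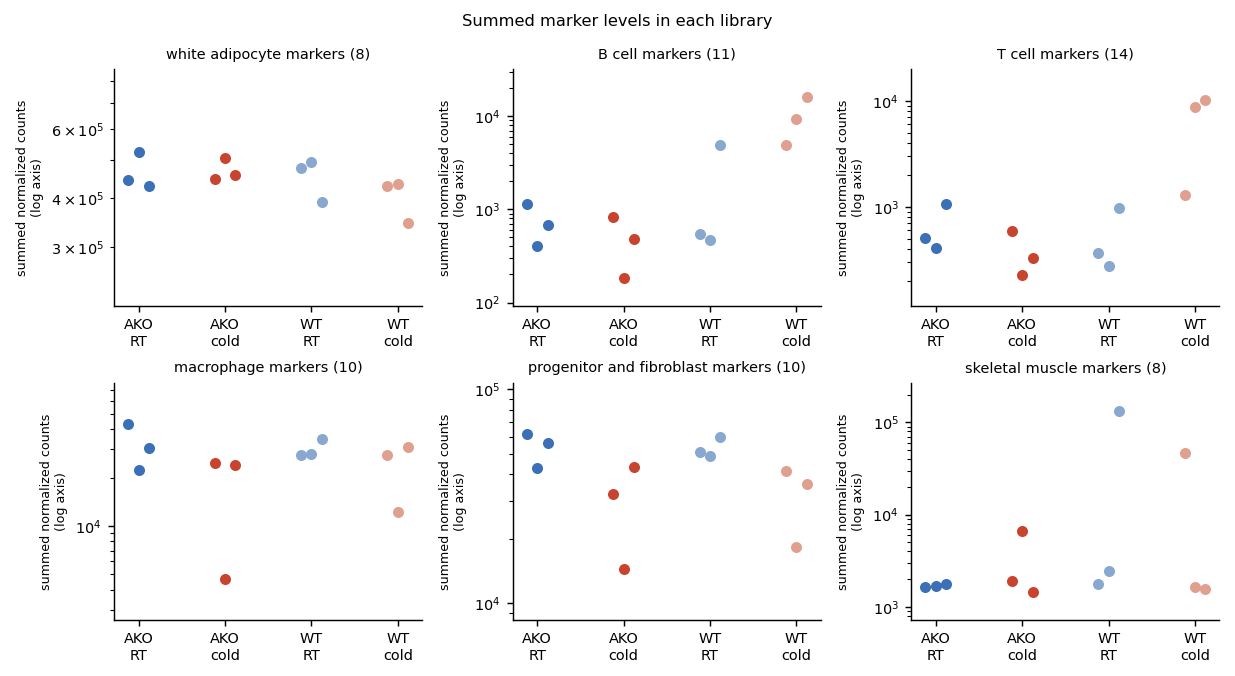
Summed normalized counts (log axes) of 6 marker lists in each of the 12 libraries, with 1 point per library and the number of markers tested in the titles. In Atf4AKO iWAT the B cell sums reach at most 1151 and the T cell sums at most 1074, and cold replicate 1 is the lowest of the 6 libraries for macrophage and progenitor markers.

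After cold exposure, 1988 genes were higher in Atf4AKO iWAT (14.8% of those tested) and 1479 were lower (11.0%), at a Benjamini-Hochberg adjusted p under 0.05 from limma. Most changes were small, with a median log2 fold change of 0.58 among the genes that rose, −0.62 among those that fell and −0.03 over all genes. By a fold over 1.5 with an unadjusted p under 0.05, the counts were 1113 higher (8.3%) and 1196 lower (8.92%). Changes of more than 2-fold among the calls numbered 323 upward (2.41%) and 293 downward (2.19%), and changes of more than 4-fold numbered 57 upward (0.425%) and 30 downward (0.224%). Scaling the libraries to the same 75th percentile in place of the authors' size factors gave 1699 higher and 2013 lower genes, so that 45.8% of the calls were rises, against 57.3%. Without cold replicate 1 the counts were 1309 higher and 971 lower, and without RT replicate 0 they were 1372 higher and 836 lower.

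Fabp3, on chromosome 4 from 130308595 to 130315463 on the plus strand, encodes a fatty acid-binding protein of heart and muscle and had normalized counts of 4.65, 7.97 and 7.42 at RT and 4450.5, 12806 and 3599 after cold exposure. Every cold value was thus far above every RT value, and the fitted change was 784-fold (log2 fold change 9.61, standard error 0.84, limma adjusted p = 5.07e-05). Elovl3, which lengthens very long-chain fatty acids in thermogenic fat and lies on chromosome 19 from 46131897 to 46135694, had 15.8, 11.9 and 12.1 at RT and 2938, 5324 and 3293 after cold exposure (log2 fold change 8.04, standard error 0.52, limma adjusted p = 1e-05). Dio2, the deiodinase that makes active thyroid hormone within the cell, was listed at 89.2, 292 and 83.5 at RT and 7010.1, 8011 and 10399.8 after cold exposure, with no overlap between the groups (log2 fold change 6.0, standard error 0.63, limma adjusted p = 0.000139). Ucp1 itself rose 182-fold, with 1097, 441 and 298 at RT and 81033, 119558 and 90868 after cold exposure. Fold changes are on the log2(normalized count + 1) scale, which understates those of low genes.

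The smallest p-value of the rises named here was that of Gk, the glycerol kinase gene on the X chromosome from 85701937 to 85776819, which lets adipocytes reuse the glycerol freed by lipolysis. Its counts were 349.5, 389 and 316 at RT and 6645, 9555 and 9001 after cold exposure, so the replicates were tight on both sides (log2 fold change 4.56, standard error 0.17, limma adjusted p = 2.54e-07). Phospho1, a phosphatase gene on chromosome 11, was at 165, 146 and 97.4 at RT and 2552, 2813 and 3071 after cold exposure, again far apart (log2 fold change 4.39, standard error 0.19, limma adjusted p = 5.86e-07). The gene Abi3 overlaps Phospho1 on the opposite strand and also rose (log2 fold change 2.03, limma adjusted p = 1.04e-05), and the strand setting of the counting is not given in the sources used here. Zfp652 overlaps Phospho1 on the same strand, and Zcchc17 overlaps Fabp3 on the opposite strand. Slc27a2, a fatty acid transport protein and acyl-CoA synthetase, rose 25.6-fold, with 27.0, 42.8 and 46.4 at RT and 657, 1354 and 1086 after cold exposure (log2 fold change 4.68, standard error 0.28, limma adjusted p = 8.69e-06). Cpt1b, the muscle form of the enzyme that admits fatty acids to mitochondria, rose 13.8-fold (log2 fold change 3.79, standard error 0.24, limma adjusted p = 8.69e-06).

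The remaining genes among the 15 largest rises were Mfsd2a, Slc25a34, Perm1, Cend1, Tmem82, Cyp2b10 and Kng2. Mfsd2a, a transporter of lysophospholipids, stood at 16.7, 18.9 and 13.0 at RT and 274, 498 and 657 after cold exposure (log2 fold change 4.72, limma adjusted p = 3.18e-05). Perm1, a muscle regulator of mitochondrial genes, gave 22.3, 27.9 and 25.0 at RT and 491, 636 and 811 after cold exposure (log2 fold change 4.61, limma adjusted p = 0.000341). Slc25a34, a mitochondrial carrier, and Tmem82 are neighbours on the minus strand of chromosome 4, with 190 bases between them. Slc25a34 had 32.5, 35.8 and 105 at RT and 873, 2209 and 1230.3 after cold exposure (log2 fold change 4.72, limma adjusted p = 7.16e-05), and Tmem82 had 2.79, 11.0 and 11.1 at RT and 114, 214 and 147 after cold exposure (log2 fold change 4.23, limma adjusted p = 0.000627). Cend1, known as a neuronal gene of cell cycle exit, had 3.72, 8.96 and 2.78 at RT and 103, 236 and 75.2 after cold exposure (log2 fold change 4.46, limma adjusted p = 0.000246). The cytochrome P450 gene Cyp2b10 rose by 4.07 and the kininogen gene Kng2 by 3.93 on the log2 scale. Fabp3, Perm1 and Cpt1b are also expressed in skeletal muscle, whose 8 markers summed to 1915, 6666 and 1452 in the cold libraries and to 1631 to 1763 at RT. All 15 rises were still called when each Atf4AKO library was left out in turn.

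**Figure D2:**
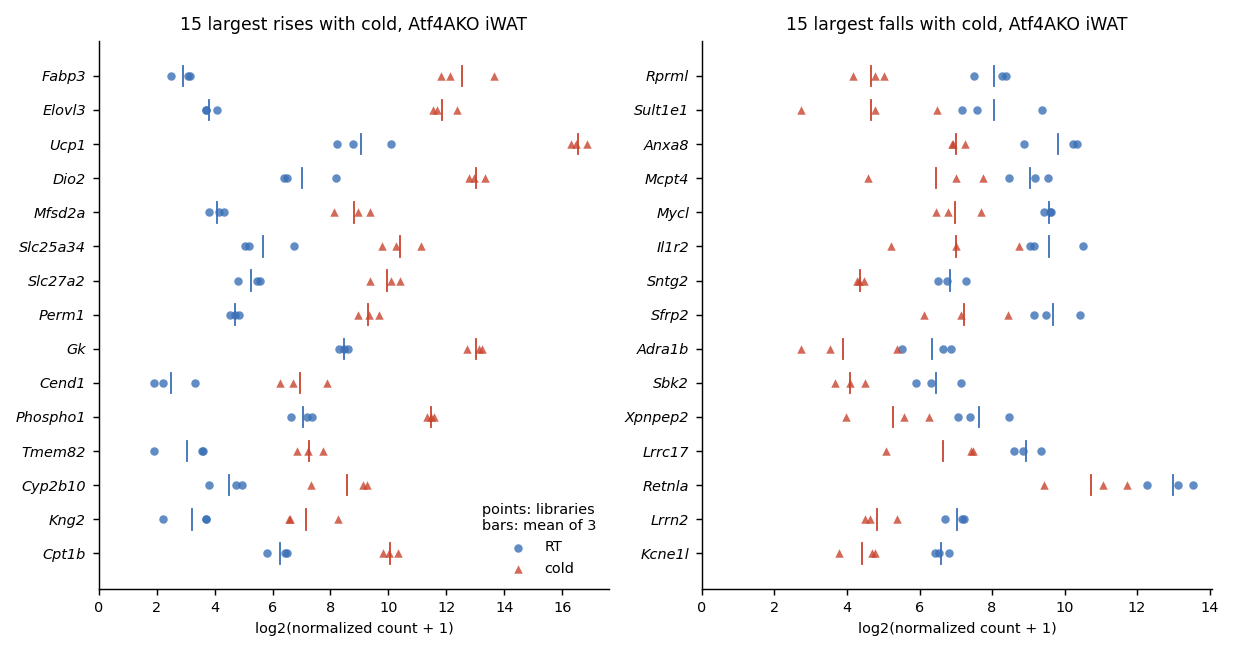
Expression of the 15 genes with the largest rises (left) and the 15 with the largest falls (right) in Atf4AKO iWAT, as log2(normalized count + 1), with 1 point per library, circles for RT, triangles for cold and bars for the mean of 3. The cold and RT points of each gene do not overlap, as the rule for these genes required, and Fabp3 and Rprml have the largest changes, at log2 fold changes of 9.61 and −3.40.

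Among the 15 largest falls, Rprml, Anxa8 and Mycl had the largest changes of those still called when each Atf4AKO library was left out in turn. Rprml, a relative of the cell cycle inhibitor gene Reprimo, lies on chromosome 11 from 103649570 to 103650579 and had normalized counts of 310.5, 333 and 180.0 at RT and 26.6, 17.0 and 31.2 after cold exposure (log2 fold change −3.40, standard error 0.31, limma adjusted p = 6.33e-05). The MYC family gene Mycl, on chromosome 4 from 122995652 to 123002485, was at 795, 778 and 692 at RT and 109, 86.2 and 204 after cold exposure, with every cold value far below every RT value (log2 fold change −2.59, standard error 0.40, limma adjusted p = 0.00119). Anxa8, an annexin, had 470.4, 1199.8 and 1303 at RT and 151, 120.2 and 117 after cold exposure (log2 fold change −2.80, standard error 0.37, limma adjusted p = 0.000516). Sntg2, a syntrophin, changed by −2.49, the kinase gene Sbk2 by −2.37, the leucine-rich repeat gene Lrrn2 by −2.20 and the potassium channel subunit gene Kcne1l by −2.18 on the log2 scale, and these 7 falls were still called with any single Atf4AKO library left out. Sbk2 overlaps Ssc5d, and Lrrc17 overlaps Fbxl13, on the opposite strand.

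The other 8 falls were called with all libraries but not without every single one. They were Sult1e1 (estrogen sulfotransferase), Mcpt4 (a mast cell protease), Il1r2 (the decoy receptor of interleukin-1), Sfrp2 (a secreted inhibitor of WNT signaling), Adra1b (an alpha-adrenergic receptor), Xpnpep2, Lrrc17 and Retnla (a product of alternatively activated macrophages). Sult1e1 had 669, 144 and 189 at RT and 26.6, 5.67 and 89.2 after cold exposure (log2 fold change −3.38, standard error 1.02, limma adjusted p = 0.0318), and its adjusted p reached 0.122 when 1 library was left out. Retnla had 11873, 4973 and 8901 at RT and 2145, 690.4 and 3358 after cold exposure (log2 fold change −2.24, standard error 0.61, limma adjusted p = 0.021), with a largest adjusted p of 0.0808, and cold replicate 1 was the lowest library for both. Retnla and Mcpt4 are themselves members of the macrophage and the granulocyte and mast cell marker lists, and each was the only member of its list that was called. The 5 granulocyte and mast cell markers tested, Mcpt4 included, summed to 960.2 to 1757 at RT and 582 to 965 after cold, and their median log2 fold change was −0.50, or 0.10 without cold replicate 1. The part of cell content in these falls was not tested.

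Genes of beige and brown adipocytes rose as a group. Of 40 genes listed for this role, 38 were tested, 24 rose, none fell and 14 were not called by limma, with a median log2 fold change of 1.77, against −0.03 over all genes. All but Fgf21 of the 24 were called without each Atf4AKO library. Beside those above, they included the coactivators Ppargc1a (2.57) and Ppargc1b (2.15), the nuclear receptors Esrra (1.23), Esrrg (2.57) and Ppara (1.74), and the lipid droplet genes Cidea (2.16) and Plin5 (2.23), all on the log2 scale. Ppargc1b, a coactivator of mitochondrial biogenesis, had 495, 407 and 489 at RT and 2189.6, 1654 and 2369 after cold exposure (log2 fold change 2.15, limma adjusted p = 8.03e-05). Plin5, which tethers lipid droplets to mitochondria, had 836, 922 and 640.1 at RT and 2994, 4424 and 3819 after cold exposure (log2 fold change 2.23, limma adjusted p = 8.65e-05). Cox7a1, the muscle and brown fat form of a cytochrome c oxidase subunit, had 272, 267 and 188 at RT and 1309.5, 2206 and 1506 after cold exposure (log2 fold change 2.77, limma adjusted p = 5.42e-05). The groups of these 3 genes did not overlap, as was the case for 21.7% of all genes upward and 19.9% downward. Several genes of beige cell identity were not called, among them the transcription factor genes Prdm16 (0.27), Ebf2 (−0.22) and Tbx1 (0.28), the surface marker genes Tmem26 (−0.79) and Tnfrsf9 (−0.41), and the receptor gene Adrb3 (−0.76).

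The promoter of Dio2 holds a known type of cAMP response element, the DNA sequence that the cAMP-activated factor CREB binds, so its upstream sequence is given here. The 250 bases before the RefSeq start site (GRCm38.p6, chr12:90739039-90739288, minus strand) are written 5′ to 3′ with the element TGACGTCA in capitals.

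Dio2: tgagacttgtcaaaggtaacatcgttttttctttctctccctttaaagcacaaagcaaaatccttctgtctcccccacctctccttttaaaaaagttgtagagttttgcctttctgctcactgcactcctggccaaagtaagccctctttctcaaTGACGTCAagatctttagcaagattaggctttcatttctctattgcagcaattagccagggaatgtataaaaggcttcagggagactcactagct

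The element reads the same on both strands and lies 95 to 88 bases before the start site. It was searched in the 250 bases before the start site in 32851 windows of the RefSeq table and occurred in 1.55% of them. Of the 259 genes with a window that rose more than 2-fold, 6 held it (2.32%), and of the 10662 tested genes with a window, 304 did (2.85%).

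Genes of the respiratory chain rose together by less than 2-fold at the median. Of 34 complex I subunits, 27 rose and none fell (median 0.62), and 20 of the 27 were called without each Atf4AKO library. For complexes II and III the numbers were 9 of 13 (median 0.78), for complex IV 11 of 16 (median 0.60) and for ATP synthase 11 of 16 with 1 lower (median 0.60), against 14.8% higher and 11.0% lower among all genes. Ndufb6, an accessory subunit of complex I, had 2891, 2951 and 2698 at RT and 5331, 7075 and 6638 after cold exposure (log2 fold change 1.15, standard error 0.13, limma adjusted p = 0.000195). Sdhd, which anchors complex II in the membrane, had 6383, 7368 and 6041 at RT and 12463, 16101 and 16173 after cold exposure (log2 fold change 1.17, standard error 0.13, limma adjusted p = 0.000225). Uqcrfs1, the Rieske iron-sulfur protein of complex III, had 8888, 11468 and 8889 at RT and 17512, 23515 and 22033 after cold exposure (log2 fold change 1.11, standard error 0.15, limma adjusted p = 0.000685). In each of these the lowest cold library lay above the highest RT library. The member that fell was Atpif1, which inhibits ATP synthase when it runs backwards, at 797, 795 and 839 at RT and 742, 489.8 and 472 after cold exposure (log2 fold change −0.54, standard error 0.16, limma adjusted p = 0.0307), and its adjusted p was at most 0.108 with 1 Atf4AKO library left out. Within complex IV, the tissue-restricted forms Cox7a1 and Cox8b rose by 2.77 and 1.41. Of the widely used forms, Cox4i1 (0.50), Cox5a (1.05), Cox5b (0.82), Cox6b1 (0.69), Cox7a2 (0.47), Cox7b (0.94) and Cox7c (0.71) rose, and Cox6a1 (0.35), Cox6c (0.47) and Cox8a (0.29) were not called, nor were Cox6a2 (1.06) and Cox4i2 (−0.54).

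The pathways that feed the chain moved the same way. Of 29 tricarboxylic acid (TCA) cycle and pyruvate dehydrogenase genes, 21 rose and none fell (median 0.79). Idh3a, a subunit of the NAD-dependent isocitrate dehydrogenase, had 11039, 12154 and 9179 at RT and 26928, 34746 and 30487 after cold exposure (log2 fold change 1.51, standard error 0.14, limma adjusted p = 7.65e-05). Pdk4, the kinase that switches pyruvate dehydrogenase off when fat is burned, was listed at 2837, 4663 and 5478 at RT and 22817, 11038 and 25266 after cold exposure (log2 fold change 2.15, standard error 0.42, limma adjusted p = 0.00401), lowest of the cold libraries in replicate 1. Mitochondrial fatty acid oxidation had 16 of 24 genes higher and 1 lower (median 0.58). Without RT replicate 0 or RT replicate 2 the number higher was 10, and without cold replicate 1 it was 9. Slc25a20, the carnitine-acylcarnitine carrier, stood out within this list with 2991, 3902 and 3368 at RT and 11011, 16307 and 12760.5 after cold exposure (log2 fold change 1.95, standard error 0.14, limma adjusted p = 1.87e-05). Cpt1a, the liver form of the gate enzyme, was not called (−0.35). Of 25 peroxisome genes, 13 rose and 1, the transporter gene Abcd2, fell (median 0.38), with Acot4, a peroxisomal thioesterase, at 86.4, 127 and 95.6 at RT and 533, 441 and 501 after cold exposure (log2 fold change 2.26, standard error 0.17, limma adjusted p = 1.98e-05).

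Genes that maintain mitochondria also rose. Of 13 mitochondrial chaperone and protease genes tested, 8 rose and none fell (median 0.65), all 8 without each Atf4AKO library. Grpel1, the nucleotide exchange factor of mitochondrial HSP70, had 2839.8, 3455 and 2724 at RT and 5675, 6816 and 6648 after cold exposure (log2 fold change 1.09, standard error 0.11, limma adjusted p = 0.00013), and the protease gene Afg3l2 had 2759.8, 3353 and 2533 at RT and 5247, 6509.9 and 6008 after cold exposure (log2 fold change 1.04, standard error 0.11, limma adjusted p = 0.00013). The import motor gene Hspa9 rose by 0.95, whereas the matrix protease gene Lonp1 (0.08) and the chaperone gene Trap1 (0.02) were not called. Of 14 fusion and fission genes, 7 rose and 1 fell (median 0.32), led by Mtfp1, a fission regulator of the inner membrane, at 455, 563 and 394 at RT and 1513, 2170.0 and 1692 after cold exposure (log2 fold change 1.92, standard error 0.18, limma adjusted p = 7.16e-05). Bnip3, a mitophagy receptor, was the member that fell (log2 fold change −0.53, limma adjusted p = 0.0494), with an adjusted p of up to 0.159 when an Atf4AKO library was left out.

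Lipid storage and turnover genes were raised in part. Gene lists share members, so their counts are not separate. Gk, Plin5, Fabp3 and Elovl3 in the lists below, and Cpt1b among the fatty acid oxidation genes, are also counted among the beige and brown adipocyte genes. Of 15 glycerol recycling and triglyceride synthesis genes, 9 rose and none fell (median 0.69). Agpat2, an acyltransferase needed for fat storage, had 29530.0, 41866 and 22368 at RT and 88272, 91156 and 99488 after cold exposure (log2 fold change 1.62, standard error 0.23, limma adjusted p = 0.000745). Of 16 lipolysis and lipid droplet genes, 7 rose and none fell (median 0.54), and neither hormone-sensitive lipase (Lipe, −0.20), adipose triglyceride lipase (Pnpla2, 0.51) nor perilipin 1 (Plin1, −0.07) was called. Fatty acid uptake had 6 of 14 genes higher and none lower (median 0.51), or 3 without RT replicate 2. De novo lipogenesis had 6 of 21 higher (28.6%, against 14.8% of all genes) and none lower (median 0.44). Mlxipl, which encodes the glucose-sensing factor ChREBP, had 3699.6, 3155 and 4227 at RT and 6988, 8939.6 and 9369 after cold exposure (log2 fold change 1.19, standard error 0.18, limma adjusted p = 0.000977), and the mitochondria-associated acetyl-CoA carboxylase gene Acacb had 10387, 11228 and 7929 at RT and 20551, 22144 and 24782 after cold exposure (log2 fold change 1.20, standard error 0.13, limma adjusted p = 0.000164), while Fasn (0.48), Acly (0.59), Scd1 (−0.16) and Acaca (−0.03) were not called. Cholesterol synthesis and uptake had 8 of 21 genes higher and none lower (median 0.61), or 5 without cold replicate 1, with Hmgcs1, the synthase at the pathway's entry, at 7224, 7406 and 6371 at RT and 19426, 16842 and 17991 after cold exposure (log2 fold change 1.37, standard error 0.14, limma adjusted p = 9.73e-05).

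Genes of glycolysis rose in part. Of 22 glycolysis genes, 12 rose and 1, Hk1, fell (median 0.54), and the number higher was 7 without cold replicate 1 and 6 without cold replicate 2. Pgk1, phosphoglycerate kinase, had 7305, 7124 and 5729 at RT and 13929, 16803 and 15978 after cold exposure (log2 fold change 1.22, standard error 0.12, limma adjusted p = 8.37e-05), and Ldhb, the lactate dehydrogenase subunit of oxidative tissues, had 3167, 4001 and 2690.4 at RT and 7184, 11718 and 8869 after cold exposure (log2 fold change 1.48, standard error 0.21, limma adjusted p = 0.000721), whereas Ldha (0.12) and the glucose transporter genes Slc2a4 (0.41) and Slc2a1 (0.07) were not called. Of 13 glycogen genes, 4 rose (30.8%, against 14.8% of all genes) and 2 fell (15.4%, against 11.0%), with a median of 0.40, among them Gys2, the liver form of glycogen synthase, at 2299, 1840.0 and 1020.5 at RT and 4666, 4248 and 5587 after cold exposure (log2 fold change 1.56, standard error 0.30, limma adjusted p = 0.00394), and Pygb, the brain form of glycogen phosphorylase, which fell (log2 fold change −0.87, limma adjusted p = 0.00112). Branched-chain amino acid catabolism had 3 of 19 genes higher (15.8%, near the share of all genes) and 1 lower (median 0.03), including the mitochondrial carrier gene Slc25a44 (log2 fold change 0.58, limma adjusted p = 0.0023), and NAD synthesis had 2 of 13 higher (15.4%, again near that share), Nmnat1 and Sirt3, and 1 lower, Nadk2 (median 0.03). In the creatine cycle, Gamt, the last enzyme of creatine synthesis, fell with 1266, 1142 and 737 at RT and 313, 283 and 307 after cold exposure (log2 fold change −1.76, standard error 0.22, limma adjusted p = 0.000352), and Alpl, a phosphatase of the cycle, rose (log2 fold change 1.24, limma adjusted p = 0.00596), of 5 genes tested. The transporter gene Slc6a8 (0.17) and the kinase gene Ckb (0.45) were not called.

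**Figure D3:**
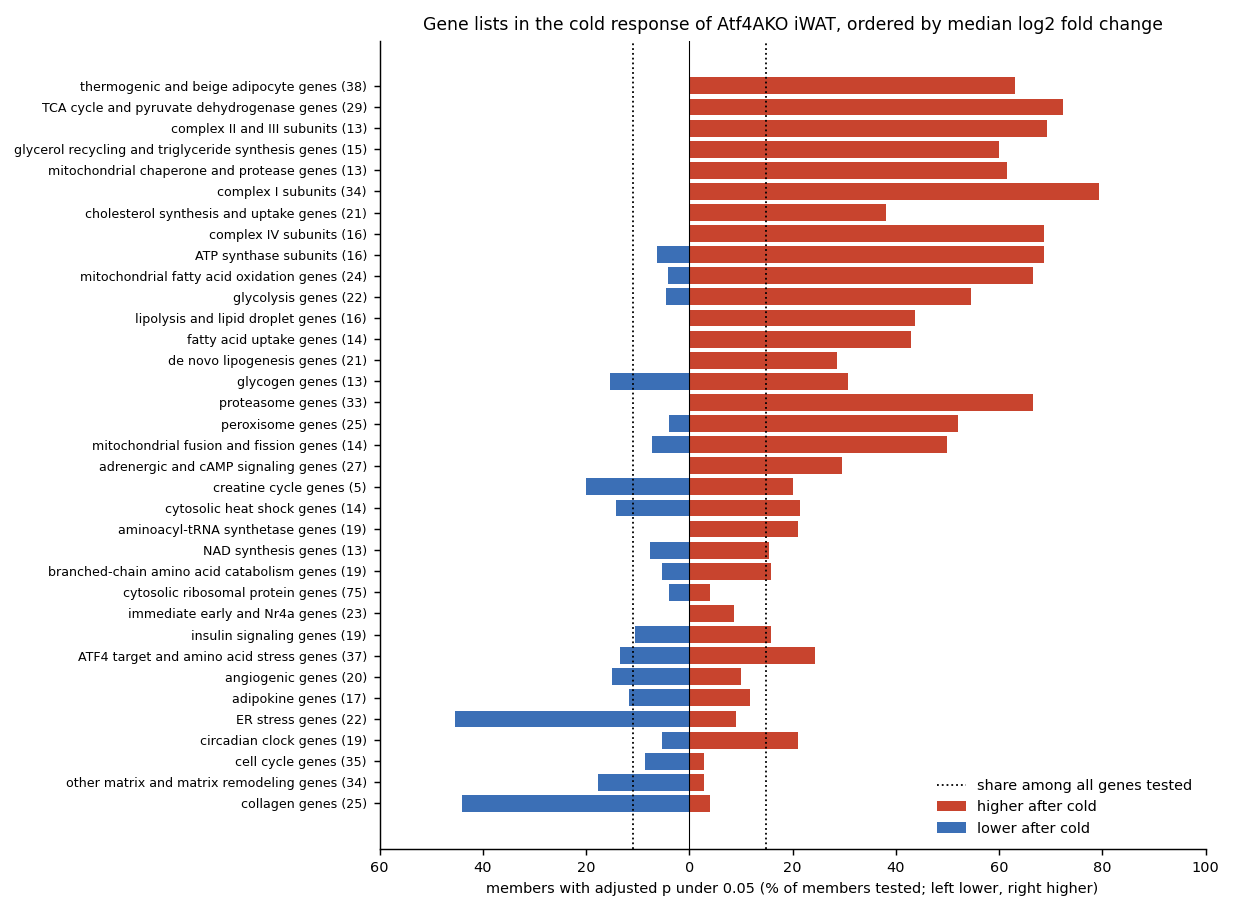
Share of each gene list (members tested in parentheses) that was higher (red, to the right) or lower (blue, to the left) after cold in Atf4AKO iWAT, in percent of members tested. Dotted lines give the shares over all 13404 genes, 14.8% higher and 11.0% lower, which complex I subunits exceed at 79.4% higher and ER stress genes at 45.5% lower.

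Among 27 adrenergic and cAMP genes, 8 rose (29.6%, against 14.8% of all genes) and none fell (median 0.19). Adcy3, an adenylyl cyclase, had 1252, 1315 and 1431 at RT and 5468, 8484 and 6080.4 after cold exposure (log2 fold change 2.30, standard error 0.13, limma adjusted p = 7.53e-06), and the phosphodiesterase genes Pde4a and Pde4d, which break cAMP down, rose by 1.01 and 1.29. Adra1a, an alpha-adrenergic receptor gene, had 356, 509 and 420.3 at RT and 865, 1031 and 989 after cold exposure (log2 fold change 1.18, standard error 0.13, limma adjusted p = 0.000164), in the opposite direction to Adra1b. Of 23 immediate early genes, Nr4a2 (log2 fold change 1.30, limma adjusted p = 0.000919) and Nr4a3 (log2 fold change 1.73, limma adjusted p = 0.0127), orphan nuclear receptors, were higher and none were lower (median −0.10), a share of 8.70% that is below that of all genes. The 19 clock genes had 4 higher (21.1%, against 14.8% of all genes) and 1 lower (5.26%, against 11.0%), with a median of −0.38. The repressor gene Nfil3, at 290.0, 311 and 409 at RT and 665, 977 and 803 after cold exposure (log2 fold change 1.27, standard error 0.23, limma adjusted p = 0.00253), and Cry1 were the members called without each Atf4AKO library. The number higher was 2 without RT replicate 1, cold replicate 1 or cold replicate 2. Of 19 insulin signaling genes, 3 rose (15.8%) and 2 fell (10.5%), shares close to those of all genes (median −0.11), with Grb14, an inhibitor of the insulin receptor, at 1634, 1417 and 891 at RT and 367, 329 and 199.9 after cold exposure (log2 fold change −2.14, standard error 0.24, limma adjusted p = 0.00023). Without RT replicate 2 the number lower was 4. Among 17 adipokine genes, Vegfa and Apln rose and Rarres2 and Rbp4 fell (11.8% each way, median −0.17). These shares were near those of all genes, 14.8% higher and 11.0% lower, and neither Adipoq (−0.36) nor Lep (−0.31) was called.

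Genes that are known targets of ATF4 or of amino acid stress moved both ways in the absence of adipocyte ATF4. Of 37 tested, 9 rose (24.3%, against 14.8% of all genes), 5 fell (13.5%, against 11.0%) and 23 were not called, with a median of −0.11, and 4 of the rises and 4 of the falls were called without each Atf4AKO library. Without RT replicate 0 there were 4 rises. Slc3a2, the heavy chain of large neutral amino acid transporters, had 3541, 3586 and 2915 at RT and 6694, 8150.5 and 8549.6 after cold exposure (log2 fold change 1.22, standard error 0.12, limma adjusted p = 8.73e-05). Asns, asparagine synthetase, had 1788, 2852 and 1961 at RT and 3231, 4575 and 3801 after cold exposure (log2 fold change 0.83, standard error 0.18, limma adjusted p = 0.00716). Atf5, a transcription factor of the mitochondrial stress response, was at 2796, 2679 and 3001 at RT and 4447, 5739 and 4982 after cold exposure (log2 fold change 0.83, standard error 0.12, limma adjusted p = 0.000652). In all of these the cold libraries lay above the RT libraries. Fgf21, the hormone secreted in mitochondrial stress, was low, at 6.51, 7.97 and 3.71 at RT and 14.9, 31.7 and 24.7 after cold exposure (log2 fold change 1.80, standard error 0.54, limma adjusted p = 0.0318), and its adjusted p reached 0.108 when an Atf4AKO library was left out.

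Of the 5 genes that fell, 4 were enzymes of proline and serine synthesis. Pycr1, the last enzyme of proline synthesis, had 81.8, 90.6 and 109 at RT and 42.5, 18.1 and 10.7 after cold exposure (log2 fold change −2.14, standard error 0.40, limma adjusted p = 0.00344), and Aldh18a1, its first enzyme, had 295, 269 and 294 at RT and 170.1, 65.8 and 134 after cold exposure (log2 fold change −1.31, standard error 0.33, limma adjusted p = 0.0144). Phgdh, which starts serine synthesis from a glycolytic intermediate, had 8418, 10085 and 7666 at RT and 3976, 3862 and 3407 after cold exposure (log2 fold change −1.21, standard error 0.13, limma adjusted p = 0.000184). Psat1, the next enzyme, was lower by −0.36 with an adjusted p of up to 0.0964 when an Atf4AKO library was left out, and Psph, the last, was not called (0.14). The translation repressor gene Eif4ebp1 fell as well (log2 fold change −0.72, limma adjusted p = 0.00724). Enzymes of mitochondrial folate metabolism were not called, with Mthfd2 at −0.36, Shmt2 at −0.32, Mthfd1l at −0.89 and Aldh1l2 at −1.15. The stress genes Trib3 (−0.44), Chac1 (−0.82), Atf3 (0.53), Ddit4 (0.28) and Gdf15 (1.19) were likewise not called, and Ddit3, the gene of CHOP, rose (log2 fold change 0.73, limma adjusted p = 0.0195).

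**Figure D4:**
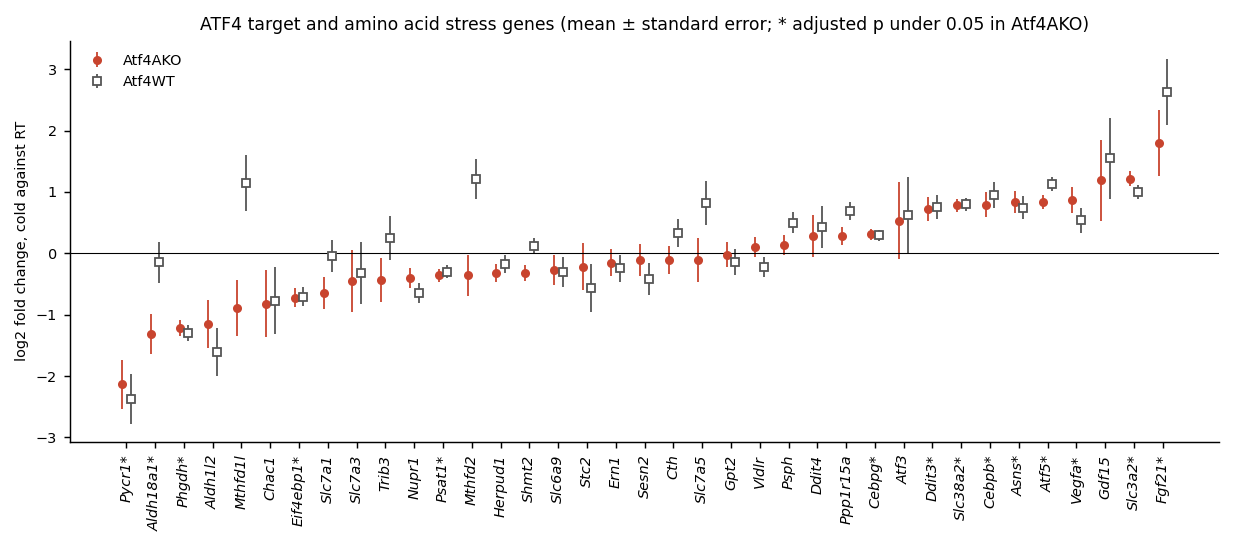
Log2 fold change, cold against RT, of the 37 ATF4 target and amino acid stress genes tested (means with standard errors), with circles for Atf4AKO and squares for Atf4WT iWAT and an asterisk where the Atf4AKO change had an adjusted p under 0.05. Pycr1 has the largest fall in Atf4AKO, at −2.14, and Fgf21 the largest rise, at 1.80.

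ATF4 and its partner C/EBP proteins bind a composite DNA element whose core can be written TGATGNAA. It was searched on both strands in the 250 bases before the RefSeq start sites and occurred in 3.45% of 32851 windows and in 257 of the 10662 tested genes with a window (2.41%). Of the 259 genes with a window that rose more than 2-fold, 11 held it (4.25%), as did 7 of the 229 that fell more than 2-fold (3.06%). Of the 32 tested genes of the ATF4 target list with a window, 8 held it, namely Asns, Atf3, Chac1, Fgf21, Herpud1, Nupr1, Pycr1 and Vldlr. The list was made of known targets, so this share is a description of the list. Among them, Asns and Fgf21 rose, Pycr1 fell and the other 5 were not called. Fgf21 (GRCm38.p6, chr7:45615491-45615740, minus strand) and Pycr1 (chr11:120643770-120643998, minus strand) are shown as a gene that rose and a gene that fell with the same element, and Gars (chr6:55037751-55038000, plus strand), glycyl-tRNA synthetase, as a rise outside the list. Sequences run 5′ to 3′ on the strand of the gene, and the capitals mark the element, which in Fgf21 and Gars lies on the opposite strand.

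Fgf21: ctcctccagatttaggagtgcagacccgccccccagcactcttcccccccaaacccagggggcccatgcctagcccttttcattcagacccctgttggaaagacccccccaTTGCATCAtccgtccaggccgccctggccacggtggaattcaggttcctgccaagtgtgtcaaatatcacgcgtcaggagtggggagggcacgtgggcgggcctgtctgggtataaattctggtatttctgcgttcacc

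Pycr1: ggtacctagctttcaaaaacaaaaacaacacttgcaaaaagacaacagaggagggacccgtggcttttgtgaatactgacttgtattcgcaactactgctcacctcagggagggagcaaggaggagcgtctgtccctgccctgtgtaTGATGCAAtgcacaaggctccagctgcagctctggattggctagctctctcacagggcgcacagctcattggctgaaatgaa

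Gars: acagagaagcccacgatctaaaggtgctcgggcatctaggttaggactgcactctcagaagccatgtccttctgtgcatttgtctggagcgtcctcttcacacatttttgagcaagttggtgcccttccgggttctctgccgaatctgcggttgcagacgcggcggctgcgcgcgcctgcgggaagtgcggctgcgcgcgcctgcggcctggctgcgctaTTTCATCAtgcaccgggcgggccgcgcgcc

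The element began 139 bases before the start site in Fgf21, 103 in Pycr1 and 30 in Gars. For Pycr1, the 21 bases nearest the start site are left out, because another annotated transcript covers them. A match is a string of letters and does not show binding.

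Gars had 3613, 3835 and 3177 at RT and 5673, 6552 and 6257 after cold exposure (log2 fold change 0.80, standard error 0.10, limma adjusted p = 0.00035). It was 1 of 4 aminoacyl-tRNA synthetase genes that rose among 19 (21.1%, against 14.8% of all genes). The others were Iars (0.69), Farsa (0.60) and Yars (0.34), and none fell (median 0.09). The other 15 ranged from −0.20 for Lars to 0.25 for Dars and were not called.

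Genes of ER protein folding fell in part. Of 22 ER stress genes, 10 were lower and 2 higher (median −0.27), and 6 of the 10 were called without each Atf4AKO library. Leaving out RT replicate 2 gave 6 lower genes. Those called included the disulfide isomerase genes Pdia6, Pdia4 and Pdia3 and the transcription factor gene Xbp1. Pdia6 had 6501, 6932 and 8660.3 at RT and 4405, 4312 and 3797 after cold exposure (log2 fold change −0.81, standard error 0.11, limma adjusted p = 0.000527), and Xbp1, which drives the unfolded protein response after splicing of its RNA, had 9563, 7659 and 6979 at RT and 4609, 4673 and 4347 after cold exposure (log2 fold change −0.82, standard error 0.13, limma adjusted p = 0.00156). Dnajb9, a cochaperone of BiP, went the other way with 1309, 1395 and 1362 at RT and 2296, 2873 and 2709 after cold exposure (log2 fold change 0.95, standard error 0.09, limma adjusted p = 7.16e-05), as did Manf (log2 fold change 0.40, limma adjusted p = 0.00655). Hspa5, the gene of BiP itself, was not called (0.10). Of 14 cytosolic heat shock genes, 3 rose (21.4%, against 14.8% of all genes) and 2 fell (14.3%, against 11.0%), with a median of 0.12. The constitutive chaperone gene Hspa8 had 15156, 20075 and 22695 at RT and 39037, 41167 and 43581 after cold exposure (log2 fold change 1.11, standard error 0.15, limma adjusted p = 0.000626), and the collagen chaperone gene Serpinh1 was lower (log2 fold change −0.91, limma adjusted p = 0.00201).

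Most proteasome genes rose, by less than 2-fold. Of 33 tested, 22 rose, none fell and all 33 had a positive log2 fold change, with a median of 0.39, and 18 were called without each Atf4AKO library. Psmb5, a catalytic subunit, had 4377, 4411 and 3779 at RT and 7263, 7525 and 7236 after cold exposure (log2 fold change 0.81, standard error 0.11, limma adjusted p = 0.000602). The 3 libraries of each condition differed little for this gene. Cytosolic ribosomal protein genes had 3 of 75 higher and 3 lower (median −0.01), which is below the shares of all genes. With 75th percentile scaling 14 were lower and 3 higher, and without RT replicate 0 or cold replicate 1 limma called none lower. Without cold replicate 0 there were 7 lower, and without cold replicate 2 there was 1.

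Of 25 collagen genes, 11 were lower (44.0%, against 11.0% of all genes) and 1 higher (median −0.89). Of 34 other matrix genes 6 were lower (17.6%, against the same 11.0%) and 1, Mmp19, higher (median −0.58). Col6a2, a chain of the beaded-filament collagen VI, had 16520.0, 13138 and 13585 at RT and 6634, 3241 and 5114 after cold exposure (log2 fold change −1.58, standard error 0.24, limma adjusted p = 0.00112). Col3a1, the main chain of collagen III, had 97115, 66284 and 74086 at RT and 36951, 18436 and 28656 after cold exposure (log2 fold change −1.54, standard error 0.29, limma adjusted p = 0.00323). Col1a1, the main chain of collagen I, had 29246, 19360.3 and 21830.3 at RT and 12197, 3002 and 9425 after cold exposure (log2 fold change −1.72, standard error 0.53, limma adjusted p = 0.0352). Cold replicate 1 was the lowest library of each, and Col1a1 reached an adjusted p of 0.117 when an Atf4AKO library was left out. Without cold replicate 1 there were 6 collagen genes and 2 other matrix genes lower, and the same numbers were lower without RT replicate 0. Sparc, a collagen-binding protein that adipocytes also secrete, had 121388, 100897 and 95796 at RT and 61798, 62903 and 58908 after cold exposure (log2 fold change −0.79, standard error 0.15, limma adjusted p = 0.00418), nearly alike in the 3 cold libraries. Timp3, an inhibitor of matrix proteases, fell as well (log2 fold change −0.70, limma adjusted p = 0.00747). Col27a1, a fibrillar collagen of cartilage, was the collagen gene that rose, with 242, 259.9 and 371 at RT and 766, 901 and 710.2 after cold exposure (log2 fold change 1.46, standard error 0.22, limma adjusted p = 0.00113).

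Beside these falls, 8 of the 10 progenitor and fibroblast markers had a negative log2 fold change (median −0.94), with Lum the member called (3 were called lower without cold replicate 2), and the median was −0.45 without cold replicate 1. All 10 macrophage markers were negative (median −0.98), with Retnla the member called, and the median was −0.34 without cold replicate 1. The part of cell content in the fall of the matrix genes was not tested. Mural cell markers fell in 2 of 6 cases (33.3%, against 11.0% of all genes, median −0.34), with Rgs5, a pericyte gene, at 5014, 5518 and 6976 at RT and 3034, 2655 and 2463 after cold exposure (log2 fold change −1.09, standard error 0.15, limma adjusted p = 0.000642), and their sum went from 14138 to 16574 at RT to 10036 to 11324 after cold. Among 7 endothelial markers, Emcn rose and Cldn5 fell (median −0.02), and of 20 angiogenic genes 2 rose (Vegfa and Apln) and 3 fell (median −0.12), or 1 without RT replicate 0 or RT replicate 1. The growth factor gene Fgf2 was 1 of these, with 103, 78.7 and 71.4 at RT and 23.4, 14.7 and 45.1 after cold exposure (log2 fold change −1.70, standard error 0.34, limma adjusted p = 0.00468). No marker of skeletal muscle (8 tested), Schwann cells and nerve (6), lymph node stroma (3), epithelium (2) or erythroid cells (2) was called by limma.

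Cell cycle genes were 1 higher (2.86%) and 3 lower (8.57%) among 35 (median −0.56), both below the shares of all genes. The higher gene was Cdkn1a, which encodes the cyclin-dependent kinase inhibitor p21, with 2082, 1992 and 2386 at RT and 6157, 7053 and 7147 after cold exposure (log2 fold change 1.66, standard error 0.14, limma adjusted p = 4.06e-05). The replication gene Mcm4 fell (log2 fold change −0.90, limma adjusted p = 0.00354), while Mki67 (−1.42) and Top2a (−1.65) were not called. Without cold replicate 0 the number of lower genes was 15.

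The same contrast was made in Atf4WT iWAT, where 2273 genes were higher (17.0%) and 2000 lower (14.9%). Of the 3467 genes called in Atf4AKO iWAT, 2638 were called in the same direction in Atf4WT (76.1% of the Atf4AKO calls and 61.7% of the Atf4WT calls), and 828 were called in Atf4AKO alone, 772 of which had the same sign in Atf4WT. The responses share no library, but both come from 1 fit that gives each gene a common estimate of the spread, so their calls are not independent. Genes that rose in Atf4AKO had a median log2 fold change of 0.58 there and 0.51 in Atf4WT, and those that fell −0.62 and −0.64. These genes and the 15 largest rises were chosen by their Atf4AKO values. That choice by itself favours larger changes in Atf4AKO, so the sizes do not show a stronger response there. For the 5 largest rises the pairs of log2 fold changes, Atf4AKO first, were 9.61 and 7.92 for Fabp3, 8.04 and 7.75 for Elovl3, 7.51 and 7.67 for Ucp1, 6.0 and 5.88 for Dio2 and 4.72 and 3.96 for Mfsd2a. Ucp1, Tmem82 (4.23 and 4.53) and Cyp2b10 (4.07 and 4.44) had the larger value in Atf4WT, and the other 12 of the 15 largest rises had it in Atf4AKO. Fabp3, Perm1 and Cpt1b are also muscle genes, and muscle signal was uneven in Atf4WT iWAT. There the 8 skeletal muscle markers summed to 1781, 2449 and 132773 at RT and to 46128, 1647 and 1543 after cold. The part of muscle in these pairs was not tested. The difference of the responses was tested as an interaction, and limma called no gene (0.0%), with 928 genes at an unadjusted p under 0.05 (6.92%) and a smallest adjusted p of 0.474. At a fold over 1.5 with an unadjusted p under 0.05 there were 621 (4.63%), where the Atf4WT response by that rule had 2846 (21.2%). On the recovered reads, edgeR called 0 and DESeq2 132.

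**Figure D5:**
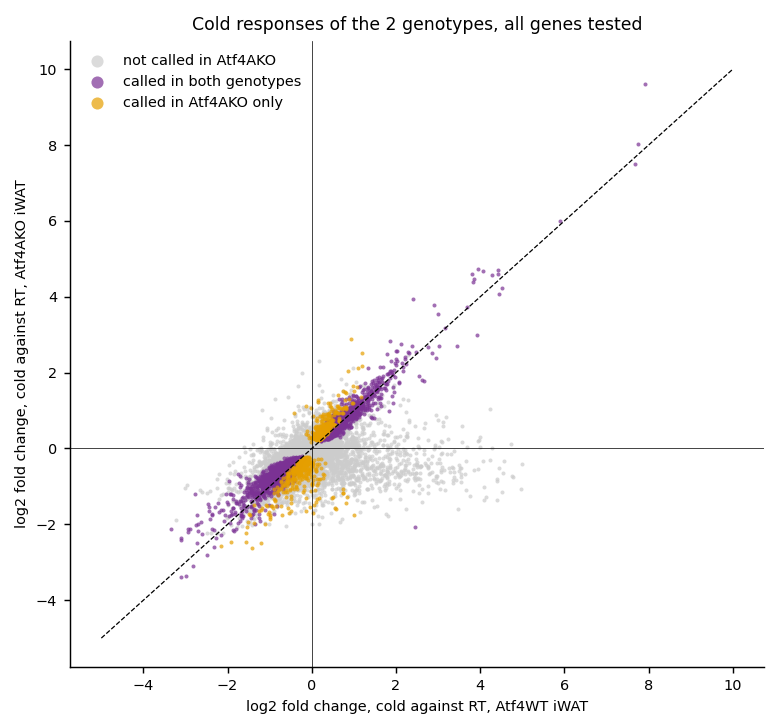
Log2 fold change, cold against RT, of all 13404 genes tested in Atf4WT (horizontal) and Atf4AKO iWAT (vertical), with a dashed line of equality and colours for genes called in Atf4AKO. Of the 3467 called genes 2638 were called the same way in both genotypes, and grey points to the right near 0 on the vertical axis rose in Atf4WT without being called in Atf4AKO.

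A single gene was called in opposite directions. Dnase1l3, a secreted nuclease known from dendritic cells and macrophages, had 54.8, 49.8 and 116 at RT and 12.8, 18.1 and 16.1 after cold exposure in Atf4AKO iWAT (log2 fold change −2.07, standard error 0.57, limma adjusted p = 0.0219), and its log2 fold change in Atf4WT was 2.44. It was singled out after its values were seen, and the test of its difference did not pass (interaction adjusted p = 0.474 from limma). Markers of lymphocytes differed in their calls beside it. Of the 25 B and T cell markers, 23 rose in Atf4WT, as did 17.0% of all genes, and none were called in Atf4AKO. All 25 had an unadjusted interaction p under 0.05, against 6.92% of all genes, but limma called none of them in the interaction (smallest adjusted p 0.474). With the lymphocyte score of each library as a covariate, limma called 1967 higher and 1523 lower genes in the Atf4AKO response. Of these, 1855 and 1341 were also called without the covariate. In the Atf4WT response the number called was 1842 with the covariate and 4273 without it.

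Within the ATF4 target list the pairs differed most for Aldh18a1 (−1.31 in Atf4AKO and −0.15 in Atf4WT), Mthfd2 (−0.36 and 1.21) and Mthfd1l (−0.89 and 1.15), and 4 of the 37 genes had an unadjusted interaction p under 0.05, with none passing the adjusted threshold. Pycr1 and Phgdh fell in both genotypes (−2.37 and −1.30 in Atf4WT). The list had 11 higher and 5 lower genes in Atf4WT. For the proteasome the numbers were 22 higher in Atf4AKO and 21 in Atf4WT, for complex I 27 in each and for collagens 11 and 12 lower. Ribosomal protein genes were the list with the most interaction p-values under 0.05 before adjustment (61 of 75), with 56 higher in Atf4WT, against 3 in Atf4AKO.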

How the data were processed

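Inguinal fat was profiled by RNA sequencing in 12 libraries, with 3 independent replicates in each group. Per the study's methods, the authors filtered reads with SOAPnuke, used STAR for alignment to mm10, took gene counts of uniquely mapped reads from featureCounts and applied pyDESeq2 normalization, and versions and the strand setting are not given in the sources used here. The deposited values are a signal per gene, reads divided by a size factor, for genes with a read in every library, so genes silent in any library are absent. Whole reads were recovered from the steps of the values (100% whole, largest deviation 0.000313).

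Of 14159 genes, 13404 had a mean of at least 10. Values were fitted as log2(value + 1) with limma 3.58.1 in R 4.3.3 (4 group means, trended variance, 12 libraries), and a gene was called at a Benjamini-Hochberg adjusted p under 0.05 over all genes tested. edgeR 4.0.16 (quasi-likelihood) and DESeq2 1.42.0 on the recovered reads were alternatives. Fits were checked on simulated data. An exact permutation test of 3 libraries against 3 cannot reach 0.05 and was not used. Named genes were the 15 largest rises and falls without overlap between groups and members of gene lists, and members, lists and rules were chosen with earlier results of these data known. Positions are from GENCODE vM21 (GRCm38), promoters from RefSeq (GRCm38.p6), with 10662 tested genes matched. Values of a few listed genes are not reported here.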

Additional observations from a re-analysis of the deposited data

Results flagged for a closer look

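In 11 cytosolic ribosomal protein genes given here, every cold library lay below every RT library in Atf4AKO iWAT and above every RT library in Atf4WT iWAT. The differences of the log2 fold changes (Atf4AKO minus Atf4WT) were −0.46 for Rpl13, −0.50 for Rpl21, −0.39 for Rpl27a, −0.37 for Rpl3, −0.31 for Rpl4 and −0.49 for Rpl5. They were −0.47 for Rplp0, −0.51 for Rplp1, −0.50 for Rps10, −0.63 for Rps20 and −0.42 for Rps26. The difference did not pass the test for any of them (smallest interaction adjusted p over all genes 0.474, limma). Of all genes tested, 48 (0.358%) moved in opposite directions without overlap in this way. B and T cell markers rose in Atf4WT beside these genes, and their part in the difference was not tested.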

How the results depend on the processing

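Genes higher after cold in Atf4AKO iWAT numbered 1988, between 1309 and 2045 with 1 library left out (1309 without Atf4AKO cold replicate 1), 1113 at a fold over 1.5 with an unadjusted p under 0.05, and 323 at a fold over 2. Genes lower numbered 1479, between 836 and 1548 with 1 library left out (836 without Atf4AKO RT replicate 0 and 971 without Atf4AKO cold replicate 1), and 293 at a fold over 2. In Atf4WT, 4273 genes were called, 3016 to 4431 with 1 library left out, 1842 with the lymphocyte score as a covariate, 2846 at a fold over 1.5 with an unadjusted p under 0.05 and 1064 at a fold over 2. The difference of the responses had 0 genes by limma, 0 to 64 with 1 library left out (64 without Atf4WT cold replicate 0), 132 by DESeq2 and 621 at a fold over 1.5 with an unadjusted p under 0.05. For the thresholds the change follows from their construction, and for the others the cause was not tested. Between Atf4AKO RT and cold libraries of the same replicate number, deviations from the group means correlated at 0.04, 0.30 and −0.19. Between genotypes at the same temperature the correlations were −0.05, 0.32 and 0.37 at RT and −0.15, 0.39 and 0.31 after cold. Whether replicate numbers pair the samples was not tested, and a replicate block gave 2243 higher and 1886 lower genes. None of the 873 genes listed or named changed sign as a call under the 24 alternatives. List medians close to 0 did change sign with 1 Atf4AKO library left out, among them NAD synthesis (−0.06 without cold replicate 2), immediate early genes (0.10 without cold replicate 1), branched-chain amino acid catabolism (−0.01 without cold replicate 1, and −0.04 with 75th percentile scaling), ribosomal proteins (0.03 without cold replicate 2), adipokines (0.0041 without cold replicate 1) and endothelial markers (0.04 without cold replicate 0). So did the medians of B cell markers (0.0074 without RT replicate 0), lymph node stroma markers (0.03 without cold replicate 1), granulocyte and mast cell markers (0.10 without cold replicate 1) and muscle markers (−0.09 without cold replicate 1). Without RT replicate 2 the medians of cholesterol synthesis, lipolysis, lipogenesis and glycogen genes were 0.34, 0.33, 0.23 and 0.23. Without cold replicate 1 those of complex IV and other matrix genes were 0.40 and −0.25. The clock median was −0.14 without RT replicate 1 and −0.25 without cold replicate 0, and the cell cycle median was −0.93 without cold replicate 0 and −0.27 without cold replicate 2. With 75th percentile scaling, falls outnumbered rises, 2013 to 1699. Of the 340 called among those 873 genes, 233 were called under every alternative. The median standard error of a log2 fold change was 0.15 with 3 libraries a group.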
